A study of Mus musculus with 6 samples.

Results

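Transcripts of 10 enzymes that make, elongate and desaturate fatty acids (Fasn, Acaca, Acly, Acss2, Scd1, Scd2, Elovl6, Fads1, Fads2 and Me1) were followed in mouse PAM212 cells with and without overexpression of the microRNA miR-28-3p. The 10 were listed by symbol for the reaction they carry out, not by a rule on measured values, out of 21936 genes in the deposited table, although earlier results of these data were known when they were listed. All 10 passed the filter on low counts, which left 11809 genes to test. The overexpression group held 3 libraries of PAM212 cells that had been infected with a lentivirus carrying mouse miR-28-3p, and the control group held 3 libraries of PAM212 cells labelled as not treated. Both groups grew in DMEM with 10% fetal bovine serum, and polyadenylated RNA was sequenced. The titles of the control libraries start with NC, and whether control cells carried an empty vector, or infected cells were a pool or 1 clone, is not stated by the submitters. The microRNA, the infection and any difference in clone or culture therefore cannot be told apart. Below, overexpression names the group of libraries and not a cause. The sample labels and the series title name keratinocytes, whereas the series design line names melanocytes. Nothing states that the 3 libraries of a group were separate cultures, so the p-values measure only the spread between these libraries, which may be technical.

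Cells make palmitate in the cytosol by cutting citrate to acetyl-CoA, carboxylating it to malonyl-CoA and condensing the units with NADPH as the reductant. The product is then lengthened and given double bonds in the endoplasmic reticulum. In the epidermis, keratinocytes use these fatty acids for membranes and for the lipids of the skin barrier, and the sterol regulatory element binding proteins are well known activators of the genes involved.

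The libraries held between 14309898 and 16383374 counted reads. Ribosomal protein genes took 4.29 ± 0.0584% of counts in overexpression libraries and 9.07 ± 0.0842% in control libraries (SD, n = 3 each). Genes weighted by their reads had a mean length of 6034 ± 14.5 bases in overexpression libraries and 5102 ± 14.8 bases in control libraries. Of 6 keratinocyte markers, 4 had any count, with a summed level of 570 to 589 CPM (counts scaled to library size, comparable between libraries) in overexpression libraries and 312 to 318 CPM in control libraries, mostly from Itga6 and Dsp, adhesion genes that epithelial cells share. Krt5 and Krt6a, keratins of basal and activated keratinocytes, were at 0 in every library, while Krt14, another basal keratin, averaged 39.1 and 30.5 CPM in overexpression and control libraries. Trp63, the transcription factor of basal keratinocytes, went the other way, at 0.110 CPM in overexpression and 1.13 CPM in control libraries (log2 fold change -3.25, adjusted p 9.81e-06 by edgeR). The defining genes of cell types rich in lipid synthesis were near 0. Of 6 sebocyte markers, 3 had any count and summed to 3.32 to 6.76 CPM in overexpression and 4.57 to 5.61 CPM in control libraries, with Awat1, Dgat2l6 and Elovl3 at 0. Among them Cidea averaged 0.0211 CPM in overexpression and 1.46 CPM in control libraries (log2 fold change -5.59, adjusted p 4.97e-09 by edgeR). Scd3 was called higher (0.62) with overlapping ranges, and Awat2 did not pass. Of 6 adipocyte markers, 4 had any count and summed to 0.288 to 0.462 CPM in overexpression and 0.726 to 1.63 CPM in control libraries, with Cidec and Lep at 0. Of 7 melanocyte markers, 6 had any count and summed to 7.33 to 8.22 CPM in overexpression and 8.05 to 9.78 CPM in control libraries, with Tyr at 0. Dct had 10, 8 and 13 reads and Tyrp1 7, 18 and 15 reads in overexpression libraries, against 0 reads of either in every control library, while Mitf (log2 fold change -0.52) and Pmel (-1.13) were lower with overexpression. Of 6 fibroblast markers, 5 had any count, mostly from Pdgfra, and summed to 16.2 to 17.1 CPM in overexpression and 43.3 to 52.0 CPM in control libraries, with Lum at 0. Of 5 leukocyte markers, 3 had any count, mostly from Cd68, and summed to 4.23 to 6.01 CPM in overexpression and 17.3 to 21.0 CPM in control libraries, with Cd3e among those at 0. The part of these markers in the results below was not tested. In bulk RNA, fewer cells of a type and less RNA per cell cannot be told apart.

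In the overexpression group, 9 of the 10 enzymes were higher than in the control group and Acss2 alone was lower. Fads2, Fasn and Elovl6 had the largest folds among the 10, and Me1, Fads1 and Scd2 the smallest of the 9 that rose. By the edgeR quasi-likelihood test, 9 of 10 passed the threshold in the higher direction, against 42.1% of all tested genes, and 1 of 10 in the lower direction, against 43.9%. In either direction 86.0% of tested genes passed, so passing alone sets few genes apart. Since earlier results were known when the 10 were listed, these shares describe them and are not a test of the list. All 9 were at least 2-fold higher, a size reached by 14.8% of tested genes, and all 9 passed a test against a minimum of 1.5-fold, which 23.4% of tested genes did. In all 9, the lowest overexpression library lay above the highest control library, an order seen in 42.2% of tested genes. Acss2 had every overexpression library below every control library, as did 43.8% of tested genes. The median log2 fold change was 2.0 over the 10 enzymes and -0.03 over all tested genes. Among the 11809 log2 fold changes, ordered from the highest, Fads2 stood at place 98, Fasn at 120, Elovl6 at 172, Scd1 at 268, Acaca at 298 and Acly at 330. Scd2 stood at place 1296, Fads1 at 1415 and Me1 at 1445, while Acss2 stood at 6493, near the middle of the order.

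The libraries of a group lay close together for these genes, with coefficients of variation between 0.25% and 6.15%. Longer genes took more of the counts in overexpression libraries, and the median gene length of the 10 enzymes was 5371.5 bases, against 4526 bases over tested genes. With a trend on gene length and GC content removed from each library, an alternative added after the data were seen, 9 enzymes still passed as higher, beside 42.5% of tested genes, and 1 as lower, beside 42.3%. Their median log2 fold change was then 1.62. The values of Fasn (2.55), Acly (2.02), Scd1 (1.90) and Scd2 (1.05) moved little, Fads2 was at 3.24, Fads1 at 1.22 and Me1 at 1.06, and Acaca (1.33) and Elovl6 (2.01) were smaller. In the authors' deposited table, the same 9 enzymes have adjusted p-values under the threshold of 0.05 in the higher direction, where 31.0% of 15710 genes do, and Acss2 is not under it in the lower direction, where 32.8% are.

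**Figure D1:**
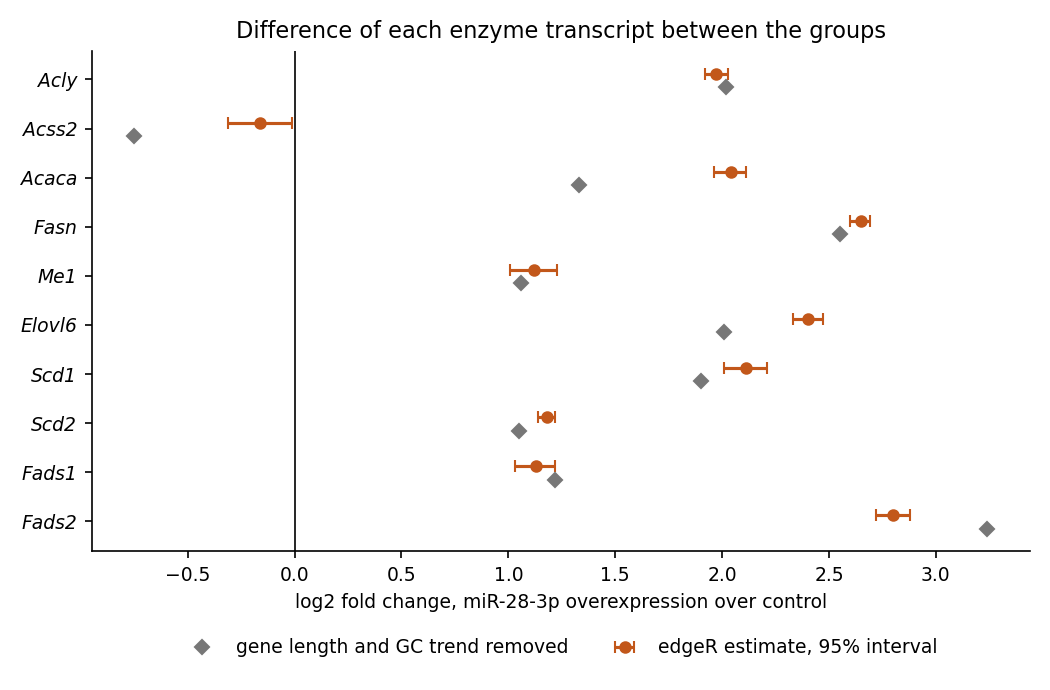
The log2 fold change of each enzyme, overexpression over control, from the edgeR fit, with its 95% interval. Fads2 is at 2.80 and Fasn at 2.65, Scd2, Fads1 and Me1 lie between 1.12 and 1.18, and Acss2 lies just below 0 at -0.16.

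Citrate lyase and acetyl-CoA synthetase supply cytosolic acetyl-CoA by different routes. The transcript of Acly rose, while that of Acss2 was only slightly lower, a call that did not hold in all settings. Acly (ENSMUSG00000020917, GRCm38 chr11:100476353-100528000, minus strand) cuts citrate exported from mitochondria. It had 612, 621 and 626 CPM in overexpression libraries, against 163, 155 and 155 CPM in control libraries. The groups did not overlap, and the spread within each was small beside the gap. The log2 fold change was 1.97 ± 0.03 (SE), or 3.92-fold higher, with an adjusted p of 9.72e-57 by edgeR. Acss2 (ENSMUSG00000027605, chr2:155517948-155585724, plus strand) makes acetyl-CoA from free acetate. It had 25.5, 27.3 and 26.7 CPM in overexpression libraries, against 29.6, 29.7 and 29.5 CPM in control libraries. The groups did not overlap, on 354, 413 and 423 reads in overexpression and 471, 450 and 465 reads in control libraries.

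The log2 fold change of Acss2 was -0.16 ± 0.07 (SE), with a 95% interval of -0.31 to -0.01 and an adjusted p of 0.0431 by edgeR, or 1.12-fold lower. Of 18 alternative settings, 9 kept Acss2 past the threshold as lower. It did not pass without any single library (adjusted p between 0.0575 and 0.152), without the filter on low counts (0.106), with DESeq2 (0.15) or against the minimum of 1.5-fold. In the authors' deposited table Acss2 has a log2 fold change of -0.15 and an adjusted p of 0.159. The difference was larger, at -0.75, with the trend on length and GC removed. Exons of Acss2 share 395 bases with Gss, 335 with the antisense gene Acss2os (3.3% of its exon bases) and 197 with Ggt7, all on the opposite strand, and the sources used here do not give the strand setting of the counting. Gss, a glutathione synthesis gene, averaged 11.98 ± 1.49 CPM in overexpression and 24.4 ± 0.275 CPM in control libraries (SD, n = 3 each), so reads that may belong to it were also fewer with overexpression. The part of reads from these genes in the value of Acss2 was not tested. Exons of Elovl6 and Me1 overlap antisense genes by less, 34 and 30 bases.

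Acaca (ENSMUSG00000020532, chr11:84129672-84401651, plus strand) encodes acetyl-CoA carboxylase alpha, which commits acetyl-CoA to fatty acid synthesis. Its levels were 247, 246 and 249 CPM in overexpression libraries, against 61.5, 57.7 and 61.4 CPM in control libraries. No overexpression library came near a control library. The log2 fold change was 2.04 ± 0.04 (SE), or 4.10-fold, with an adjusted p of 6.96e-50 by edgeR. Fasn (ENSMUSG00000025153, chr11:120805846-120824547, minus strand) encodes fatty acid synthase, the multifunctional enzyme that builds palmitate from malonyl-CoA. It had 1405, 1404 and 1421 CPM in overexpression libraries, against 220.2, 231 and 225 CPM in control libraries. The overexpression libraries agreed to within a coefficient of variation of 0.683%, and the groups were far apart. The log2 fold change was 2.65 ± 0.02 (SE), or 6.26-fold, with an adjusted p of 5.79e-66.

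Me1 (ENSMUSG00000032418, chr9:86581371-86695953, minus strand) encodes cytosolic malic enzyme, a source of NADPH for the synthase. It had 82.8, 78.2 and 84.8 CPM in overexpression libraries, against 36.3, 37.3 and 39.8 CPM in control libraries. The groups did not overlap, and the log2 fold change of 1.12 ± 0.06 (SE), or 2.17-fold, was the smallest rise among the 10 enzymes, with an adjusted p of 3.15e-27 by edgeR. Elovl6 (ENSMUSG00000041220, chr3:129532355-129638495, plus strand) lengthens palmitate to stearate. It had 318, 328 and 319.9 CPM in overexpression libraries, against 63.6, 61.1 and 58.8 CPM in control libraries. Its libraries also fell into separate ranges by group. The log2 fold change was 2.40 ± 0.03 (SE), or 5.26-fold, with an adjusted p of 7.73e-55.

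Scd1 (ENSMUSG00000037071, chr19:44394455-44407879, minus strand) and Scd2 (ENSMUSG00000025203, chr19:44293674-44306864, plus strand) encode stearoyl-CoA desaturases, which put the first double bond into saturated fatty acids. Scd1 had 134, 134 and 138 CPM in overexpression libraries, against 29.9, 32.1 and 32.0 CPM in control libraries. Scd2, the higher of the pair also on the FPKM scale given below, had 2369, 2371 and 2534 CPM in overexpression libraries, against 1075, 1084 and 1048 CPM in control libraries. Both rose with no overlap between groups. By edgeR the log2 fold change was 2.11 ± 0.05 (SE) for Scd1 (4.32-fold, adjusted p 7.61e-44) and 1.18 ± 0.02 (SE) for Scd2 (2.27-fold, adjusted p 5.66e-46). The coding sequences of the main annotated transcripts of the pair are identical at 968 of 1067 aligned bases (90.7%), with a longest shared run of 147 bases over the whole transcripts. Reads from such stretches can be given to either gene, and the sources used here do not give how the authors' counting treated them.

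Fads2 (ENSMUSG00000024665, chr19:10062765-10101746, minus strand) and Fads1 (ENSMUSG00000010663, chr19:10182888-10196877, plus strand) encode the desaturases that act in turn on polyunsaturated fatty acids, Fads2 at the first step. Fads2 had 292, 289 and 293 CPM in overexpression libraries, against 39.6, 41.9 and 43.9 CPM in control libraries. Fads1 had 120.1, 132 and 118 CPM in overexpression libraries, against 57.0, 55.1 and 57.5 CPM in control libraries. Neither gene had a library inside the range of the other group, and Fads1 had the widest spread of the 10 within the overexpression group (6.15%). By edgeR the log2 fold change was 2.80 ± 0.04 (SE) for Fads2 (6.97-fold, adjusted p 3.2e-56) and 1.13 ± 0.05 (SE) for Fads1 (2.19-fold, adjusted p 5.55e-31). The coding sequences of this pair are less alike, at 69.3% identity with a longest shared run of 17 bases over the transcripts.

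On the deposited FPKM scale, which divides counts by gene length, Scd2 had the highest level of the 10 in both groups. For these enzymes that length covers all annotated exons of the gene, such as 10163 bases for Acss2 and 17074 for Acaca. It can exceed the length of the transcript present, so levels of different genes are only roughly comparable. It averaged 429.5 ± 16.2 FPKM in overexpression and 202 ± 3.65 FPKM in control libraries (SD, n = 3 each), which placed it at the 99.6th and 98.3rd percentile of tested genes. In overexpression libraries Scd2 was followed by Fasn (124.7 ± 0.692 FPKM), Acly (113.6 ± 1.08), Fads2 (85.6 ± 0.723) and Elovl6 (48.5 ± 0.808). Scd1 (26.8 ± 0.470) and Fads1 (24.9 ± 1.54) came next and overlapped, and Me1 (20.6 ± 0.839), Acaca (14.01 ± 0.0710) and Acss2 (2.52 ± 0.0825) closed the order. In control libraries the order below Scd2 began with Acly (30.9 ± 0.910 FPKM) and Fasn (21.2 ± 0.451), so these exchanged places between the groups. Fads2 (13.1 ± 0.643) and Fads1 (12.1 ± 0.278) followed, Me1 (10.1 ± 0.470) and Elovl6 (9.82 ± 0.410) overlapped, and Scd1 (6.61 ± 0.251), Acaca (3.64 ± 0.134) and Acss2 (3.01 ± 0.00899) were the lowest. All other neighbours in both orders had ranges that did not overlap. The level of Acaca stood at the 68.5th percentile of tested genes in overexpression and the 32.1st in control libraries, and that of Elovl6 at the 92.0th and 58.4th. Acss2 stood at the 28.3rd percentile in overexpression and the 28.2nd in control libraries.

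**Figure D2:**
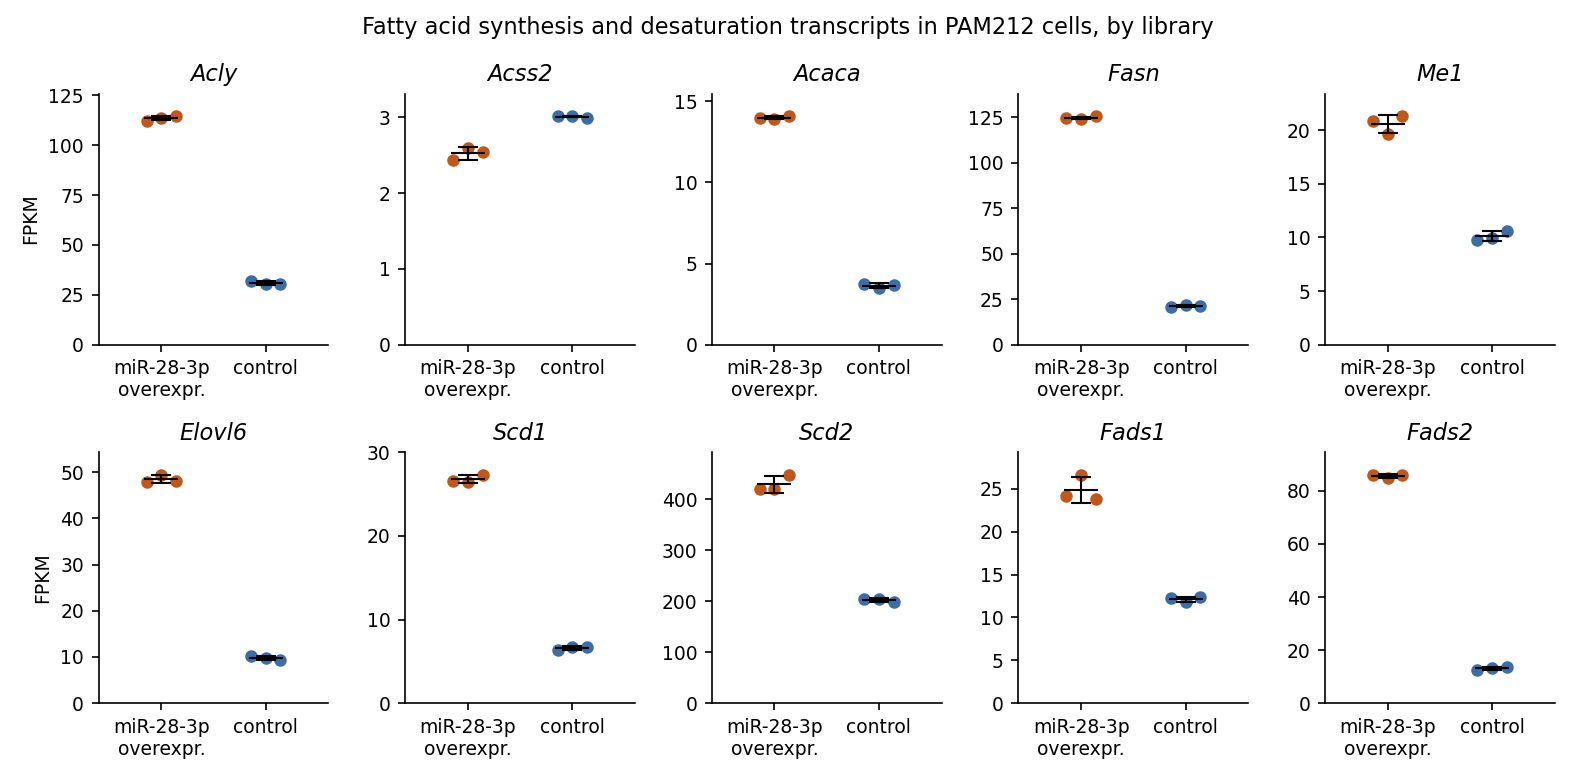
FPKM of each of the 10 enzymes in every library, with 1 panel per enzyme, overexpression at the left and control at the right of each panel, and a line at each group mean. The groups are separate in all 10 panels, with overexpression above control in 9 and below it for Acss2 (2.52 against 3.01 FPKM).

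Together the 10 genes took 0.550 ± 0.0101% of counted reads in overexpression libraries and 0.183 ± 0.0019% in control libraries (SD, n = 3 each). Their summed FPKM was 890.6 ± 18.0 in overexpression and 312.5 ± 3.12 in control libraries. Scd2 contributed 39.4% of that increase, Fasn 17.9%, Acly 14.3% and Fads2 12.5%, although Scd2 had one of the smaller folds. Scd2 made up 48.2 ± 0.841% of the summed FPKM in overexpression and 64.6 ± 0.526% in control libraries, and Fasn 14 ± 0.206% in overexpression and 6.80 ± 0.147% in control libraries.

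Pairs of enzymes within the same library showed how unequal the changes were. The gene lengths used affect the level of each ratio but cancel in its difference between groups. The log2 ratio of Fads2 to Fads1 FPKM was 1.83, 1.67 and 1.86 in overexpression libraries, against 0.02, 0.15 and 0.16 in control libraries, a difference of 1.68. The transcripts of these consecutive desaturases were near parity in control libraries, and Fads2 exceeded Fads1 with overexpression. The log2 ratio of Scd1 to Scd2 was -3.98, -3.99 and -4.04 in overexpression libraries, against -5.01, -4.92 and -4.87 in control libraries, a difference of 0.93. Scd1 was thereby 5.87 ± 0.111% of the summed FPKM of Scd1 and Scd2 in overexpression and 3.17 ± 0.145% in control libraries (SD, n = 3 each), the minor transcript in both. The log2 ratio of Acss2 to Acly was -5.53, -5.45 and -5.49 in overexpression libraries, against -3.41, -3.33 and -3.34 in control libraries, a difference of -2.13. The acetate route was the lower of these transcripts in both groups and lay further below the citrate route with overexpression. The log2 ratio of Acaca to Fasn was -3.15, -3.15 and -3.16 in overexpression libraries, against -2.48, -2.64 and -2.52 in control libraries, a difference of -0.61. No ratio overlapped between groups. Each of the 4 had a two-sided exact permutation p of 0.1, the smallest that 3 against 3 libraries allows, and 0.1 after adjustment over the 4, so none could pass the threshold of 0.05.

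**Figure D3:**
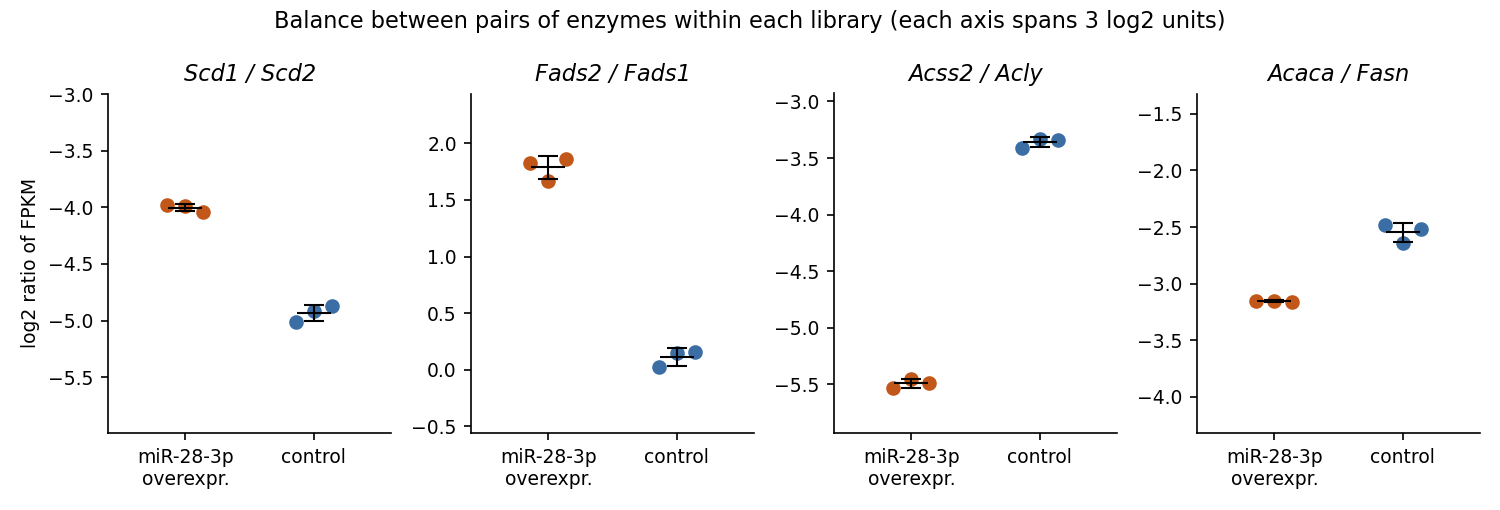
The log2 FPKM ratio of 4 pairs of enzymes in each library, overexpression at the left and control at the right of each panel. The points of a group lie within a narrow band and the bands are apart, by 1.68 for Fads2 over Fads1 and by -2.13 for Acss2 over Acly.

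Most other genes of fatty acid elongation and desaturation rose, by less than Elovl6. Of 16 listed, Elovl2, Elovl3, Elovl4 and Fads6 did not pass the filter on low counts. Of the 12 tested, 8 rose and 4 fell, beside 42.1% and 43.9% of all tested genes. Their median log2 fold change was 0.44, beside -0.03 for all tested genes. Fads3, a relative of Fads1 and Fads2, averaged 88.5 ± 1.26 CPM in overexpression and 47.8 ± 1.72 CPM in control libraries (log2 fold change 0.89). Elovl5, the elongase that works between the steps of Fads2 and Fads1, averaged 125 ± 3.92 and 82.2 ± 1.75 CPM in overexpression and control libraries (0.61). Elovl1, an elongase of very long saturated chains, averaged 62.5 ± 4.27 CPM in overexpression and 36.7 ± 3.36 CPM in control libraries (0.77). Hsd17b12, the ketoreductase of the elongation cycle, averaged 179 ± 3.63 CPM with overexpression and 107 ± 3.66 CPM in control libraries (0.74). All 4 had every overexpression library above every control library, as did 42.2% of tested genes. The 4 that fell were Tecr, Hacd4, Scd4 and Hacd2. Scd4 lost the call without overexpression replicate 1 (adjusted p 0.149 by edgeR) or control replicate 2 (0.0563), and Hacd2 without overexpression replicate 1 (0.0847) or 2 (0.0529) or control replicate 1 (0.0623). Tecr, the last reductase of the cycle, averaged 160 ± 0.872 CPM in overexpression and 207 ± 5.59 CPM in control libraries, a log2 fold change of -0.38 that turned to 0.03 with the length trend and 0.33 with the length and GC trend removed. Hacd4, a relative of the elongation dehydratases, averaged 7.57 ± 0.791 CPM in overexpression and 12.5 ± 0.661 CPM in control libraries (-0.72). The highest value of the list was that of Hacd1, an elongation dehydratase, at 13.0 ± 0.744 CPM in overexpression and 5.47 ± 0.475 CPM in control libraries. Its log2 fold change of 1.25 (2.38-fold) lay above those of Scd2, Fads1 and Me1 and below that of Elovl6 (2.40).

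Genes listed for acetyl-CoA and NADPH supply, not all of which feed the cytosolic synthase directly, were mixed. Of the 10 tested, 5 rose and 4 fell, beside 42.1% and 43.9% of all tested genes, and 1 (Idh1) did not pass. The median log2 fold change was 0.10, and Acss1 did not pass the filter. Me2, the mitochondrial malic enzyme, had 96.6, 94.3 and 96.2 CPM in overexpression libraries, against 22.1, 19.1 and 18.9 CPM in control libraries. It rose 4.78-fold (log2 fold change 2.26 ± 0.06, SE), beside 2.17-fold for the cytosolic Me1. As a mitochondrial enzyme, Me2 is not read here as a source of NADPH for the synthase. Pgd, which makes NADPH in the pentose phosphate pathway, averaged 239.7 ± 8.92 CPM in overexpression and 114 ± 3.47 CPM in control libraries (1.07). Pgls, which acts just before Pgd, was lower, at 93.2 ± 1.11 CPM in overexpression and 241 ± 10.6 CPM in control libraries (-1.37). Mdh1 fell with -0.46, and Me3, the other mitochondrial malic enzyme, was at 0.861 ± 0.436 CPM in overexpression and 1.71 ± 0.221 CPM in control libraries (-0.97), a call lost without overexpression replicate 2 (adjusted p 0.11 by edgeR) and with DESeq2 (0.058). Citrate synthase (Cs), the mitochondrial enzyme that makes citrate, rose with a log2 fold change of 0.71. The citrate carrier Slc25a1, which brings the substrate of Acly to the cytosol, averaged 74.6 ± 0.466 CPM in overexpression and 79.8 ± 2.57 CPM in control libraries. Its log2 fold change of -0.10 (adjusted p 0.0463 by edgeR) lost the call without any overexpression replicate (0.0907, 0.1003 and 0.133) or control replicate 3 (0.225), and turned to 0.38 and 0.80 with the length trend and the length and GC trend removed.

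Acyl-CoA synthetases and regulators of the carboxylase divided, with 5 of 10 tested genes higher and 5 lower, beside 42.1% and 43.9% of tested genes. Their median log2 fold change was -0.06. Thrsp and Prkaa2 did not pass the filter. Acacb, the carboxylase isoform known for making malonyl-CoA at the mitochondrial surface, had 8.08, 5.48 and 5.62 CPM in overexpression libraries, against 23.8, 25.9 and 23.3 CPM in control libraries. It fell with a log2 fold change of -1.94 ± 0.12 (SE), or 3.83-fold lower, whereas Acaca rose 4.10-fold. Mlycd, which breaks malonyl-CoA down, had 3.46, 2.24 and 3.60 CPM in overexpression libraries, against 14.1, 14.5 and 15.9 CPM in control libraries, and was 4.79-fold lower (-2.26 ± 0.15, SE). Malonyl-CoA is both the building block of Fasn and an inhibitor of mitochondrial fatty acid entry, and the transcripts of its 3 named enzymes moved in both directions. Acsbg1, an acyl-CoA synthetase, averaged 89.9 ± 2.78 CPM in overexpression and 212 ± 8.23 CPM in control libraries (-1.24). Acsl3, which activates fatty acids for lipid droplets, averaged 137 ± 5.41 CPM in overexpression and 73.5 ± 3.09 CPM in control libraries (0.90). Prkaa1, a catalytic subunit of the kinase that inhibits the carboxylase, averaged 121 ± 1.46 CPM with overexpression and 65.7 ± 4.05 CPM in control libraries (0.89). Acsl6 fell with -0.66, and Acsl5 had 0.27, which lost the call with upper quartile scaling (0.04, adjusted p 0.159 by edgeR). Acsl4 had 0.06, which turned to -0.01 with the length trend and -0.30 with the length and GC trend removed. Acsl1 had a log2 fold change of 0.53 that turned to -0.10 with the length and GC trend removed.

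The separate fatty acid synthesis system of mitochondria, which makes the precursor of lipoic acid, showed no common direction. Of 6 tested genes, 1 rose and 3 fell, beside 42.1% and 43.9% of all tested genes, and 2 did not pass. The median log2 fold change was -0.26. Cbr4, a subunit of its ketoreductase, averaged 11.5 ± 0.487 CPM in overexpression and 28.2 ± 0.713 CPM in control libraries (-1.30). Acsf3, which makes mitochondrial malonyl-CoA, averaged 12.6 ± 1.73 and 21.3 ± 0.718 CPM in overexpression and control libraries (-0.75). Mecr, its enoyl reductase, had a log2 fold change of 0.17 that lost the call without overexpression replicate 2 or 3 or control replicate 2 or 3 (adjusted p between 0.0597 and 0.114 by edgeR) and turned to -0.06 with upper quartile scaling. Mcat, its acyl transferase, had -0.57, which turned to 0.25 with the length and GC trend removed.

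**Figure D4:**
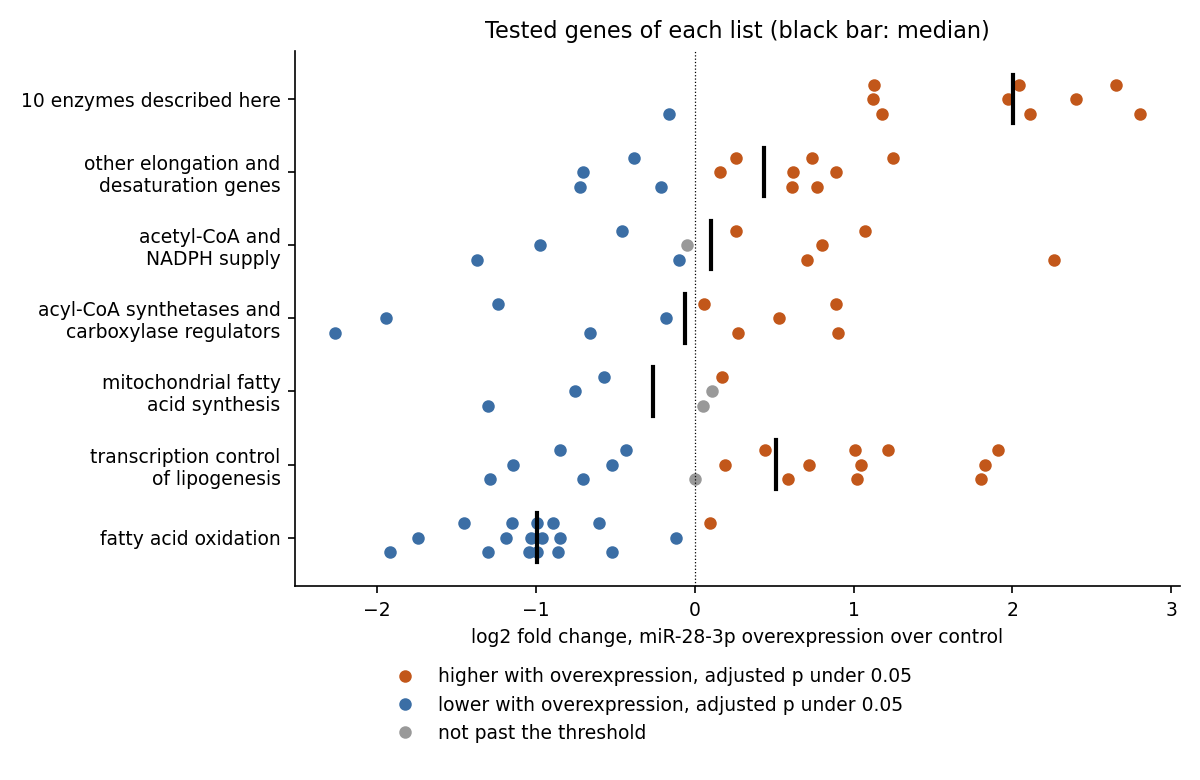
Each point is the log2 fold change of 1 tested gene, overexpression over control, arranged by list, with a bar at the median of each list. The 10 enzymes have a median of 2.0, the oxidation genes one of -0.99, and the other lists lie between -0.26 and 0.52.

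Enzymes of fatty acid oxidation, the opposing pathway, lay on the other side of 0. Of 18 tested genes, 17 fell and 1 rose, beside 43.9% and 42.1% of all tested genes, and the median log2 fold change was -0.99. Etfb and Ehhadh did not pass the filter. Acaa1a, the peroxisomal thiolase, had 34.8, 39.3 and 33.6 CPM in overexpression libraries, against 133, 142 and 134 CPM in control libraries, and was 3.80-fold lower (-1.92 ± 0.05, SE). Hadh averaged 79.0 ± 1.40 CPM in overexpression and 162 ± 4.85 CPM in control libraries (-1.04). The acyl-CoA dehydrogenases Acadm (-0.96) and Acadl (-0.86) were also lower. Hadhb, a subunit of the trifunctional protein, was the gene that rose, at 73.0 ± 0.532 CPM in overexpression and 68.0 ± 1.88 CPM in control libraries. Its log2 fold change of 0.10 lost the call without overexpression replicate 1 or 3 or control replicate 1 or 3 (adjusted p between 0.0529 and 0.111 by edgeR) and turned to -0.13 with upper quartile scaling, -0.10 with the length trend and -0.39 with the length and GC trend removed. With the length and GC trend removed the median of the list was -0.54.

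The genes that control transcription of these enzymes changed unevenly. Of 18 tested, 11 rose and 6 fell, beside 42.1% and 43.9% of all tested genes, and 1 did not pass. The median log2 fold change was 0.52, and Mlxipl and Pparg did not pass the filter. Srebf1, which encodes the sterol regulatory element binding protein best known for fatty acid synthesis genes, had 145, 149.6 and 146 CPM in overexpression libraries, against 130.2, 125 and 131 CPM in control libraries. Its log2 fold change of 0.19 ± 0.04 (SE, adjusted p 3.27e-06 by edgeR) was small beside those of the 9 enzymes that rose. The value for Srebf1 turned to -0.04 with upper quartile scaling, and was 0.10 with the length trend and 0.48 with the length and GC trend removed. Srebf2, its relative best known for cholesterol synthesis genes, had 305, 321 and 318 CPM in overexpression libraries, against 89.8, 87.3 and 88.1 CPM in control libraries. It rose 3.56-fold (1.83 ± 0.03, SE, adjusted p 3.74e-50), a size between those of Acly and Scd2.

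Proteins that carry and cut the sterol regulatory element binding proteins were also measured. Insig1, which retains them in the endoplasmic reticulum, had 227, 219 and 223 CPM in overexpression libraries, against 62.2, 66.1 and 64.1 CPM in control libraries (log2 fold change 1.80 ± 0.04, SE). Insig2, its paralog, was lower, at 47.0 ± 1.35 CPM in overexpression and 76.6 ± 3.75 CPM in control libraries (-0.70). The escort Scap averaged 111 ± 4.46 CPM in overexpression and 53.4 ± 4.13 CPM in control libraries (1.05). The proteases that release the active factors rose as well, Mbtps2 at 1.01 and Mbtps1 at 0.44. With the length and GC trend removed, Mbtps2 was at 0.31 and Mbtps1 turned to -0.01.

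The liver X receptors, nuclear receptors known to raise Srebf1, Fasn and Scd1, had lower transcript levels with overexpression. Nr1h2 averaged 41.1 ± 3.46 CPM in overexpression and 100.6 ± 5.11 CPM in control libraries (log2 fold change -1.29). With the length and GC trend removed, Nr1h2 was at -0.57. Nr1h3 averaged 1.47 ± 0.504 and 2.63 ± 0.149 CPM in overexpression and control libraries (-0.85) and did not pass without overexpression replicate 3 (adjusted p 0.0855 by edgeR), with the length trend removed (-0.45, adjusted p 0.143) or with the length and GC trend removed (-0.15, adjusted p 0.631). Their partner Rxra fell with -0.43. Factors that bind lipogenic promoters beside the sterol regulatory element binding proteins differed in direction: Sp1 (1.22), Nfya (1.02), Nfyc (0.59) and Mlx (0.72) rose. The coactivator Ppargc1b (1.91) also rose, on few reads, at 4.04 ± 1.13 CPM in overexpression and 1.06 ± 0.374 CPM in control libraries. Usf1 (-1.14) and Usf2 (-0.52) fell. With the length and GC trend removed, Sp1 was at 0.67, Usf1 was at -0.54 and Usf2 turned to 0.20. Nfyb averaged 52.6 ± 5.88 CPM in overexpression and 52.8 ± 0.905 CPM in control libraries and did not pass (adjusted p 0.966 by edgeR), though with upper quartile scaling it passed as lower, at -0.23. These are transcript levels, and the cleaved, active proteins were not measured.

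The sequences of the overexpressed microRNA and its hairpin partner, from RefSeq on GRCm38.p6, are shown because their seeds (bases 2 to 8, in capitals) define the sites looked for in the enzymes. They lie at chr16:24827908-24827929 (3p) and chr16:24827868-24827889 (5p) on the plus strand. Both are written 5′ to 3′.
mmu-miR-28a-3p: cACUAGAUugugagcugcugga
mmu-miR-28a-5p: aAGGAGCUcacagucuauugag
The seeds differ, so the arms do not share sites.

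The site that pairs with the 3p seed, ATCTAGT, was found in the annotated 3′ UTR of 0 of the 10 enzymes, beside 6.49% of 11656 tested genes with an annotated 3′ UTR. The UTRs searched were between 705 bases (Acss2) and 5005 bases (Elovl6) long. The site for the 5p seed, AGCTCCT, was found in 2 of the 10, Fads1 and Me1, beside 15.8% of those genes. Both matches are shown with the flanking 10 bases on each side and the site in capitals. That of Fads1 starts at base 980 of its UTR and that of Me1 at base 1149, on chromosomes 19 and 9.
Fads1: gcagcgaggcAGCTCCTctgtctactc
Me1: ctgtacagtgAGCTCCTtgaaggtgag
A match is a description of letters and not a functional site. Fads1 and Me1 were both higher with overexpression (2.19-fold and 2.17-fold), and the sources used here do not give whether the lentivirus also yielded the 5p arm.

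Promoter windows, from 250 bases before to 50 after a RefSeq start on GRCm38.p6, were matched for 7 of the 10 enzymes in 8 windows, 2 of them for Me1, and no window is given for Scd1, Scd2 and Fads1. The only window of Acaca (chr11:84195188-84195487) lies inside the gene, which starts at 84129672, so the region at that start was not searched. The window of Fads2 (chr19:10101454-10101753, minus strand) lies almost wholly inside the gene, whose outermost start is at 10101746. The region upstream of that start was thus hardly searched. The letters searched on both strands were TCACNCCAC (the core of a sterol regulatory element), CCAAT (the box bound by NF-Y), GGGCGG (the GC box bound by Sp1) and CACGTG (an E-box). CCAAT was found in 4 of the 8 windows (Fasn, Acss2, Acly and the window at the downstream start of Me1), beside 37.4% of 32851 promoters. GGGCGG was found in 4 of 8 (Acss2, Acly, Fads2 and the window at the upstream start of Me1), beside 35.7%. TCACNCCAC and CACGTG were found in 0 of 8, beside 1.24% and 7.15% of promoters, which says only that these letters are not in these windows. The windows of Fasn and Acss2 are shown because one belongs to the enzyme with the highest FPKM gain after Scd2 and the other to the enzyme that was lower, with CCAAT or its complement ATTGG in capitals.
Fasn, chr11:120824498-120824797, minus strand: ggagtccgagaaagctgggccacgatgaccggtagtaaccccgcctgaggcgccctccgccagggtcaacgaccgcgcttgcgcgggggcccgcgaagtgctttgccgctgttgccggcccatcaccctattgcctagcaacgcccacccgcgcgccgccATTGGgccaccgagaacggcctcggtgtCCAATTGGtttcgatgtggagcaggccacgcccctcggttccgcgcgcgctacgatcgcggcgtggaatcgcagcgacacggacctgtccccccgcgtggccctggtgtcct
Acss2, chr2:155517793-155518092, plus strand: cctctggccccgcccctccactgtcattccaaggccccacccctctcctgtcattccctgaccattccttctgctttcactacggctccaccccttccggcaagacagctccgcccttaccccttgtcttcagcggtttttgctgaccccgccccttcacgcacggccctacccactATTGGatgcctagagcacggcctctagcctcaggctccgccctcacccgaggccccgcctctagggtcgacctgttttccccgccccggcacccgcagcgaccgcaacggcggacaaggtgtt
Fasn held 3 matches, at -90, -62 and -59 from the start, of which the last 2 overlap on opposite strands. Acss2 held 1, at -73, and 5 of GGGCGG, which Fasn lacked. Among the other enzymes that rose, GGGCGG had 4 matches in Acly, 4 in the upstream window of Me1 and 1 in Fads2. It had 0 in the windows of Elovl6 and Acaca and in the downstream window of Me1. The lower call of Acss2 held in only 9 of 18 alternative settings. Any part of these matches in the transcript levels was not tested.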

How the data were processed

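Read counts per gene and library were deposited by the authors as raw counts, per the file headers, together with FPKM values that equal count over gene length and column total. The authors' deposited table of differential expression holds log2 fold changes and p-values. HISAT2, HTSeq, DESeq and mm9 are named without versions in the submitters' processing notes. The coordinates of the 10 enzymes equal those of GENCODE for GRCm38 in 10 of 10 cases, so GRCm38 is given. The sources used here do not give the strand setting, read pairing or handling of paralogs.

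Counts were tested with edgeR 4.0.16 (R 4.3.3): filterByExpr with a minimum count of 10, TMM scaling, the robust quasi-likelihood test and Benjamini-Hochberg adjustment over 11809 genes at 0.05. SE is the log2 fold change divided by the square root of F, so it comes from the test. The common biological coefficient of variation was 2.93%. CPM are TMM-scaled. The FPKM ratios were compared by exact permutation. Alternatives used DESeq2 1.42.0 and limma 3.58.1, limma on log2 FPKM with a pseudocount of 1, 0.1 or 5.

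The enzymes and gene lists were chosen with earlier results of these data known. All 10 enzymes and all transcription control genes are named, and from the other lists up to 4 higher and 4 lower genes with the smallest p. Hacd1, Idh1 and Acsl4 were named after their values were seen. Sequences come from RefSeq (GRCm38.p6) and GENCODE. Coding-sequence identity replaced the protein identity first intended, since protein sequences were not used here. Hsd17b8 was not analysed here. A few genes of the lists are counted but not reported here by name.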

Additional observations from a re-analysis of the deposited data

How the results depend on the processing

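The 9 rises of the enzymes kept their direction and call in all 18 alternatives, with log2 fold changes between 1.14 and 2.06 for Acaca, 1.45 and 2.13 for Scd1, 1.73 and 2.02 for Acly, 2.19 and 2.67 for Fasn, 1.85 and 2.43 for Elovl6, 0.95 and 1.21 for Scd2, 2.32 and 3.24 for Fads2, 0.80 and 1.22 for Fads1 and 0.76 and 1.25 for Me1. The fall of Acss2 did not: the count of enzymes lower was 0 without the filter on low counts, with DESeq2 and with the 1.5-fold minimum (0 also at an unadjusted p under 0.05), and 0 to 0 when each library was left out, where 1 had an unadjusted p under 0.05 without overexpression replicate 2. Over all genes, 2762 were higher and 3185 lower against the 1.5-fold minimum, and upper quartile scaling, which moved the median of all genes to -0.26, gave 3961 higher and 6288 lower, beside 4975 and 5184. For other elongation and desaturation genes, the count higher was 5 with upper quartile scaling, 4 against the 1.5-fold minimum and 5 with limma without a filter. Their count lower was 2 with DESeq2, 0 against the 1.5-fold minimum, 1 with the length trend removed and 2 to 4 with a library left out. For acetyl-CoA and NADPH supply, the count lower was 2 with DESeq2, 1 against the 1.5-fold minimum and 2 to 4 with a library left out. For acyl-CoA synthetases and carboxylase regulators, 3 were higher with upper quartile scaling, and 2 were higher and 3 lower against the 1.5-fold minimum. For mitochondrial fatty acid synthesis, the count higher was 0 with upper quartile scaling, DESeq2, the 1.5-fold minimum and all 4 limma settings, 2 with the length and GC trend removed and 0 to 1 with a library left out. For oxidation, the count higher was 0 with the same settings and with either trend removed, and 0 to 1 with a library left out. Of transcription control genes, 3 were lower against the 1.5-fold minimum. None of the counts of 0 had a gene at an unadjusted p under 0.05, apart from the library left out above and 1 oxidation gene without overexpression replicate 1. Leaving out mitochondrial and ribosomal protein genes put the enzymes at 0.585% of reads in overexpression and 0.206% in control libraries. The direction turned for Hadhb (-0.13 with upper quartile scaling, -0.10 with the length trend, -0.39 with the length and GC trend removed), Srebf1 (-0.04) and Mecr (-0.06) with upper quartile scaling, Slc25a1 (0.38, 0.80), Tecr (0.03, 0.33) and Mbtps1 (-0.00, -0.01) with the length and the length and GC trend removed, and Acsl1 (-0.10), Mcat (0.25) and Usf2 (0.20) with the length and GC trend removed. The cause was not tested. The trend on length and GC was added after the data were seen. Deviations of same-numbered libraries correlated at -0.005, -0.003 and -0.031, so no shared deviation was seen. This cannot tell whether the libraries were prepared in pairs, which the labels do not state. With the replicate number as a block, 4955 genes were higher and 5161 lower, the calls of the 10 enzymes were 9 higher and 1 lower, Slc25a1 lost its call (adjusted p 0.0506 by edgeR), and the paired sign-flip p of the ratios was 0.25. With 3 libraries a group the ratios cannot pass the threshold, and low genes such as Nr1h3 rest on few reads.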
